A study of Drosophila melanogaster with 4 samples.

Results

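The regions described here are the H3K23ac-enriched regions in the outer 2 Mb of 4 chromosome arms of Drosophila melanogaster, on the side of the telomere. A region belonged to an arm end when its midpoint lay within 2 Mb of the end of X, 2L or 3L, where base 1 is the telomere side, or of 3R, where the telomere side is the last base. Arm 2R was not used here. Positions are on FlyBase release 5, so the end of 3R began at base 25905054. The ends held 809 of the 9467 regions of ChIP replicate 1, 817 of the 9142 regions of ChIP replicate 2 and 1012 of the 16244 regions of the combined list deposited for the whole series. The rule uses position and no measured value, though it was set with earlier results of these data known.

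Chromatin was prepared from nuclei of heads sieved from adult flies of the wild-type Oregon-R strain, labelled as mixed adults and raised in population cages. The series had 4 samples, namely 2 ChIP samples for H3K23ac and 2 inputs, each the background of 1 ChIP sample. Lists of enriched regions were used for both ChIP replicates and for the series as a whole, and no file of the inputs was used. Read numbers were not given in the sources used here, so the depth behind each region is unknown, and no counting interval was computed. Nothing in the labels tells if the replicates are separate collections of flies, so their spread may be technical only. The labelled tissue could not be checked, since the files hold no expression values.

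H3K23ac is the acetylation of a lysine in the tail of histone H3. In flies it is placed by the acetyltransferase Enok, among others, and it is found on chromatin of active genes. The telomere-side end of a Drosophila arm passes from a cap of telomeric retrotransposons through repeated subtelomeric sequence into gene-bearing euchromatin. Transgenes inserted in the subtelomeric repeats are often silenced, which is known as telomeric position effect. An assembled arm need not reach the cap, and reads from repeats cannot always be placed, so an end here is the end of the assembled sequence.

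When each arm was divided from its end inward into full windows of 2 Mb, the outermost was the most covered window on all 4 arms, in both replicates and in the combined list. Regions covered 32.6% of the 4 ends in replicate 1 and 33.2% in replicate 2, against 18.0% and 17.4% of the rest of the same arms. The ends thus had 32.9% ± 0.429 covered and the rest 17.7% ± 0.387 (SD, n = 2), a difference of 15.2 percentage points ± 0.816. The difference was larger than the spread between replicates. A two-sided exact sign test over 2 replicates cannot give a p below 0.5, and this holds for every comparison of ends with the rest below. In the combined list, 57.2% of the ends and 41.2% of the rest were covered.

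The placing of the windows bears on that order. When a window of 2 Mb was moved along each arm in steps of 100 kb, the most covered position in both replicates began at the very end on 3L only. On X it ran from 400 to 2400 kb, with 34.1% and 30.7% in replicates 1 and 2, and on 2L from 100 to 2100 kb, with 31.3% and 33.2%. On 3R it ran from 600 to 2600 kb, with 35.3% and 38.7%. In both replicates each of these windows overlapped the end. In the combined list the most covered window of 3L lay elsewhere, from 20900 to 22900 kb, with 60.2% covered against 57.4% of the end.

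The ratio of the end to the rest of its arm was highest on X. The end of X was covered over 29.9% in replicate 1 and 26.7% in replicate 2, against 11.3% and 9.82% of the rest of X. That ratio was 2.65 and 2.72 on X. It was 1.89 and 1.99 for 3L, 1.71 and 1.83 for 2L, and 1.53 and 1.66 for 3R. The replicate values of no arm overlapped those of another, so the order of the arms was the same in both. Among the 11 full windows of 2 Mb on X, the next most covered after the end had 15.3% in replicate 1 and 14.8% in replicate 2. The next most covered full window had 25.2% and 24.6% on 2L, 28.4% and 27.8% on 3L, and 27.4% in both replicates on 3R. On 3R these were different windows, 8 to 10 Mb from the end in replicate 1 and 2 to 4 Mb in replicate 2. The full windows stop short of the centromere side of 3R, whose last 2 Mb had 28.4% and 28.7%, below its telomere-side end.

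**Figure D1:**
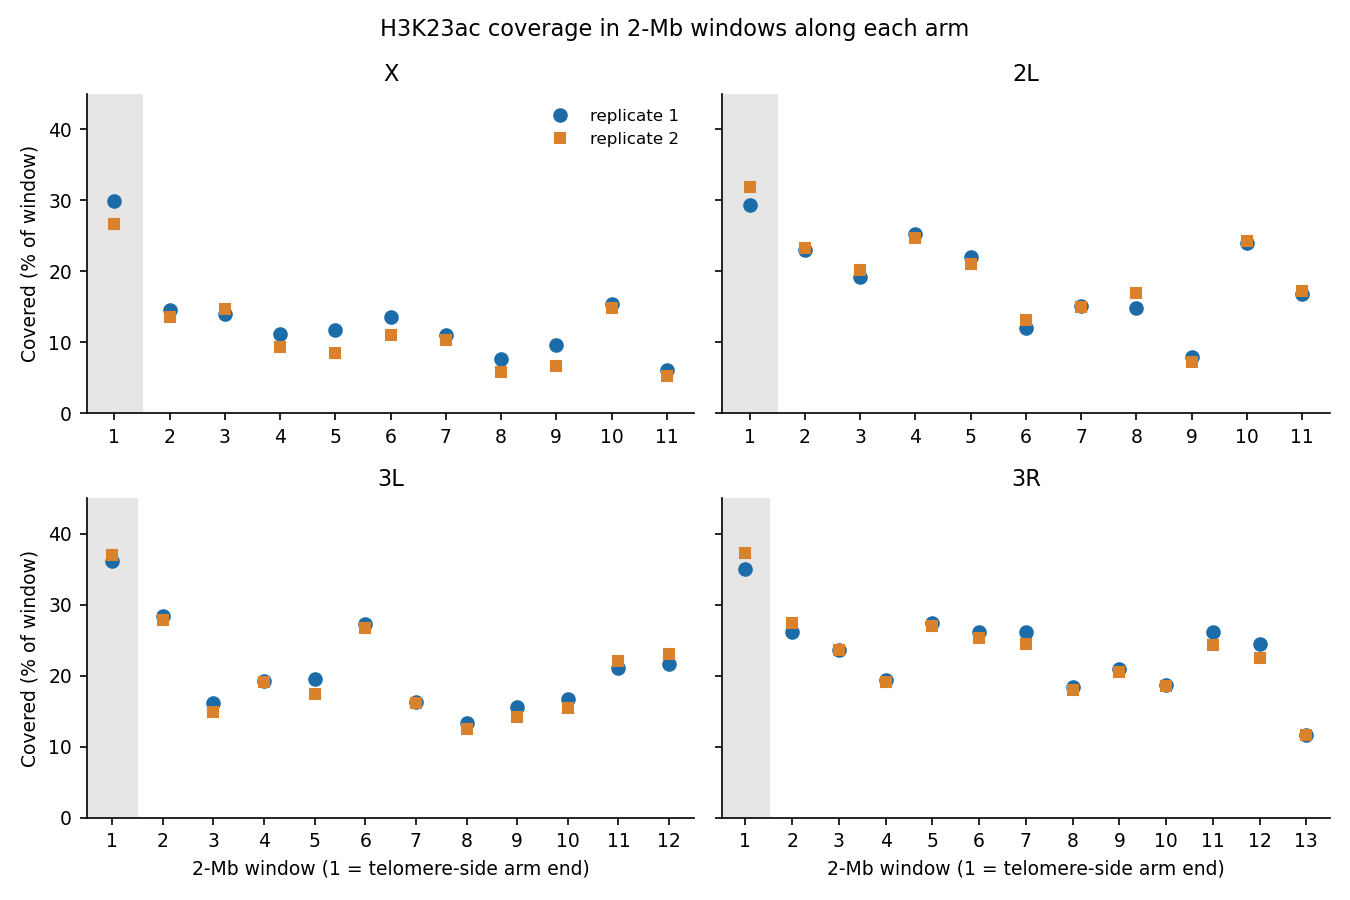
Share of each full 2-Mb window covered by H3K23ac regions (%, vertical axis) along X, 2L, 3L and 3R, with windows numbered inward from the telomere-side end (horizontal axis); circles are replicate 1 and squares replicate 2. The shaded first window is the highest in each panel, at 29.9% and 26.7% on X against at most 15.3% and 14.8% in its other windows.

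The ends reached their coverage in different ways. The end of 3R held the most regions, 118 and 125 per Mb in replicates 1 and 2, followed by 2L at 100.5 and 99.5 per Mb and X at 95.0 and 92.5 per Mb. The end of 3L held the fewest, 91.0 and 91.5 per Mb, and the widest ones. Its median width was 2546 bp and 2482 bp, above the 2216.5 bp and 2054 bp at the end of 3R, 2066 bp and 2170 bp at X, and 2010 bp and 2017 bp at 2L. The widths of the 3L end lay above those of the other ends in both replicates, while those of 3R and X overlapped and those of 2L lay below both. The ends of 3L and 3R were covered alike, at 36.6% ± 0.654 and 36.2% ± 1.66, with a mean difference below the spread. The ends of 2L, at 30.6% ± 1.70, and of X, at 28.3% ± 2.30, overlapped as well, and both lay below 3L and 3R.

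Regions in the ends were wider and closer together than in the rest of the same arms. The median end region spanned 2193 bp (replicate 1) and 2102 bp (replicate 2), while in the rest it spanned 1860 bp and 1873 bp, a difference of 281 bp ± 73.5 (SD, n = 2). When regions under 1000 bp apart were merged, the difference was 851 bp. The difference was present on each arm in both replicates, from 122.5 bp on 2L in replicate 2 to 666 bp on 3L in replicate 1. In replicate 2, though not in replicate 1, another full window of 2 Mb had a larger median than the end on 2 arms. It was 2066 bp against 2017 bp on 2L and 2632 bp against 2482 bp on 3L. Neighbouring regions were separated by a median of 2517 bp and 2448 bp in the ends, and by 3774 bp and 3817 bp in the rest. On X, gaps were 2117 bp and 1962.5 bp in the end and 6456 bp and 6963 bp in the rest, the largest contrast of the 4 arms. On 2L they differed least, with 3093 bp and 3231 bp in the end and 3449 bp and 3558 bp in the rest.

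Broad regions of at least 10 kb were more frequent in the 4 ends together than in the rest. In replicate 1, 21 of the 809 end regions were this wide, which is 2.60%, against 1.03% in the rest of the 4 arms and 1.29% over the whole list. In replicate 2 it was 30 of 817, or 3.67%, against 1.08% in the rest and 1.60% over the whole list. The combined list had 101 of its 1012 end regions at 10 kb or more, or 9.98%, against 3.50% in the rest and 4.45% over the whole list. The end of X held 5 such regions in each replicate, and the remainder of X held 1 in replicate 1 and 0 in replicate 2. On 3R the share of broad regions differed by about the spread between replicates, at 1.69% and 2.40% in the end and 1.52% and 1.47% in the rest, a mean difference of 0.552 percentage points ± 0.533. The 2 Mb at the centromere side of 3R had a higher share than its telomere-side end, 3.52% and 3.66%. On 2L the share of broad regions differed by less than its own spread between replicates, at 1.49% and 4.52% in the end and 1.02% and 1.22% in the rest, a mean difference of 1.88 percentage points ± 2.00.

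The score of a region, the authors' own value on a log2 scale with an unknown zero point, was higher in the ends. Its median was 0.62 in both replicates over the 4 ends, against 0.58 in both over the rest, a difference of 0.043 ± 0.0039 (SD, n = 2) on the log2 scale. On 3L the median was 0.63 and 0.61 in the end and 0.56 in both replicates in the rest. On X it was 0.75 and 0.73 in the end and 0.70 and 0.69 in the rest. The end scored higher than the rest on each arm in both replicates, by 0.027 to 0.068. By full windows of 2 Mb, the end did not have the highest median on every arm. On 3R another window had 0.607 and 0.594 in replicates 1 and 2, against 0.594 and 0.587 at the end. On 2L another window had 0.590 in replicate 1, against 0.589 at the end, but none was higher in replicate 2. On X and 3L the end was highest in both replicates. Of the end regions, 329 in replicate 1 and 329 in replicate 2 lay in the upper 25% of scores of their list. That is 40.7% and 40.3% of the end regions, against 23.9% and 23.3% of the rest and, by construction, 25.0% of each whole list. X regions score high throughout their arm, with 76.3% and 76.8% of the X end and 68.1% and 66.1% of the rest of X in this upper part. On 3L the shares were 39.6% and 38.3% in the end and 14.7% and 15.4% in the rest. On 3R they were 28.8% and 27.2% in the end and 15.0% and 15.6% in the rest. On 2L they were 21.9% and 24.6% in the end, below the 25.0% of the whole list, and 14.6% and 15.1% in the rest. Without X, the ends together had 29.7% and 29.6%, against 14.8% and 15.4% of the rest.

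Wide regions also score higher, so scores were set side by side within 4 classes of width. On 2L, 3L and 3R together, end regions scored above the rest in each class in both replicates. The difference was 0.023 and 0.033 among regions of up to 1600 bp, 0.028 and 0.013 up to 2500 bp, 0.022 and 0.019 up to 5000 bp, and 0.048 and 0.045 in wider ones. On X it changed sign between replicates in each of the 3 narrower classes. There it was -0.0069 and 0.015 up to 1600 bp, 0.0041 and -0.00087 up to 2500 bp, and -0.0026 and 0.025 up to 5000 bp. Among X regions wider than 5000 bp the end was higher in both replicates, by 0.080 and 0.066, over 34 and 19 end regions and 23 and 26 others. This widest class has no upper limit, so widths within it were not matched on any arm. On X it held 5 and 5 end regions of at least 10 kb, against 1 and 0 in the rest.

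**Figure D2:**
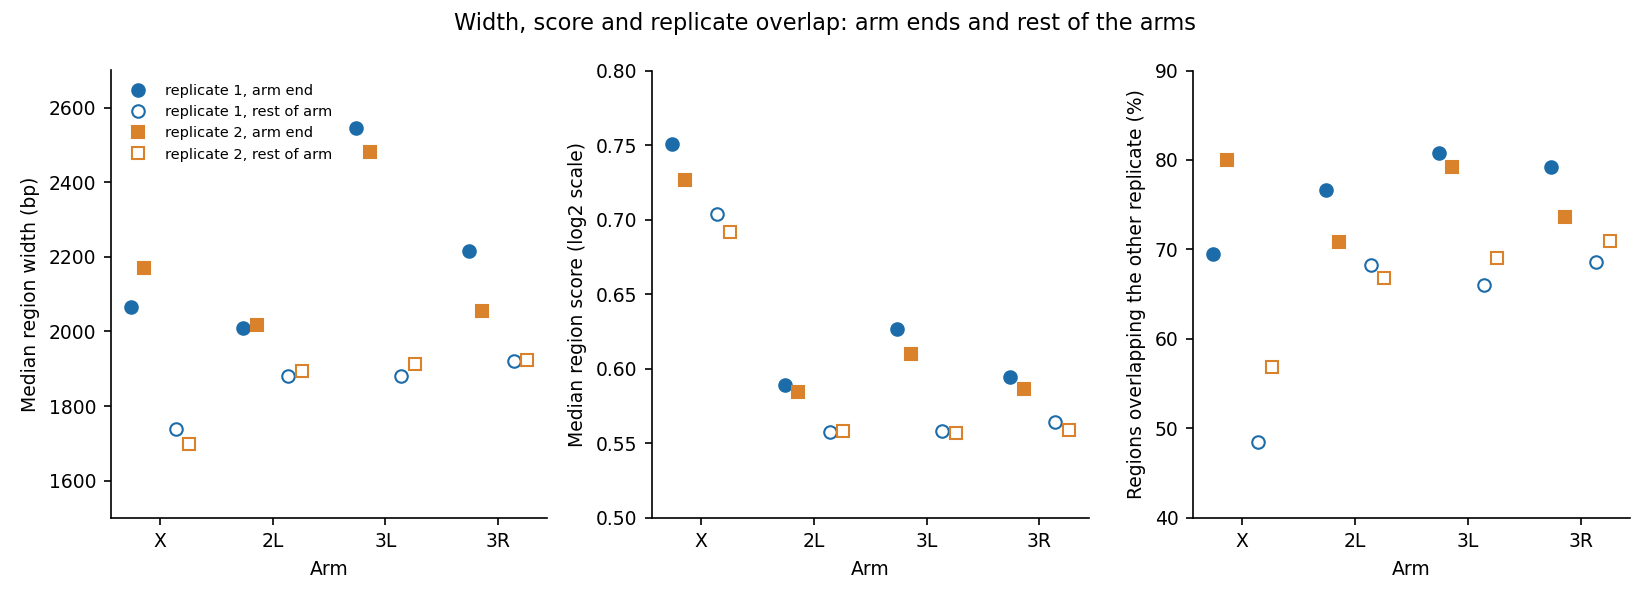
Median width (bp), median score (log2 scale) and share of regions overlapping the other replicate (%) for each arm, with the arm end as filled and the rest of the arm as open symbols; circles are replicate 1 and squares replicate 2, and the vertical axes do not start at 0. In each panel and arm the end lies above the rest of its arm in the same replicate, and the end of 3L has the widest regions at 2546 bp and 2482 bp.

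The distance of the first region from the arm end differed between arms. On 2L the first region began 7.90 kb from the end in replicate 1, 7.94 kb in replicate 2 and 7.37 kb in the combined list. On 3R it began at 10898 bp, 10979 bp and 10878 bp, and on 3L at 52.3 kb, 61.1 kb and 52.4 kb. The first regions of the replicates overlapped each other on 2L and 3R but not on 3L, where the first region found in both began at 67.1 kb in replicate 1 and 67.3 kb in replicate 2. The first regions of 2L scored 0.62 and 0.48 in the replicates, those of 3R 0.58 and 0.52, and those of 3L 0.46 and 0.47. When only regions scoring above their list's median were kept, the first lay at 7.90 kb and 35.9 kb on 2L, 88.3 kb and 88.1 kb on 3R, and 67.1 kb and 133 kb on 3L.

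The end of X was nearly unmarked over its first 400 kb. Replicate 2 had no region there, and its first began at 418 kb. Replicate 1 had 3 regions, at X 27279 to 29087, X 167572 to 169020 and X 390336 to 393114, with scores of 0.61, 0.57 and 0.57, and none of them overlapped replicate 2. The first X region found in both replicates began at 430 kb in replicate 1 and 428 kb in replicate 2. The regions covered 1.51% of these 400 kb in replicate 1 and 0% in replicate 2. The other ends were well covered over the same distance, at 33.6% and 35.5% on 2L, 25.1% and 24.3% on 3L, and 33.0% and 32.1% on 3R. They held 40 and 36 regions there on 2L, 31 and 29 on 3L, and 47 and 45 on 3R.

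Beyond 400 kb, the coverage of X lay within the range of the other ends. From 400 kb to 2 Mb it had 37.0% and 33.3% covered, against 28.3% and 30.9% on 2L, 38.8% and 40.2% on 3L, and 35.5% and 38.6% on 3R. The change on X came within 1 step of 100 kb: the step from 300 to 400 kb had 2.78% and 0% covered and the next had 28.0% and 30.1%. The combined list held 17 regions in the first 400 kb of X, and they covered 7.20% of the stretch. Replicate 2 had no region there, so 0 of the 17 could overlap both replicates. Of the 17, 3 overlapped replicate 1 and 14 overlapped neither. Regions in neither made up 53.1% of the combined regions in the rest of X and 44.4% over the whole list. The scores of the 17 ran from 0.25 to 0.54.

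**Figure D3:**
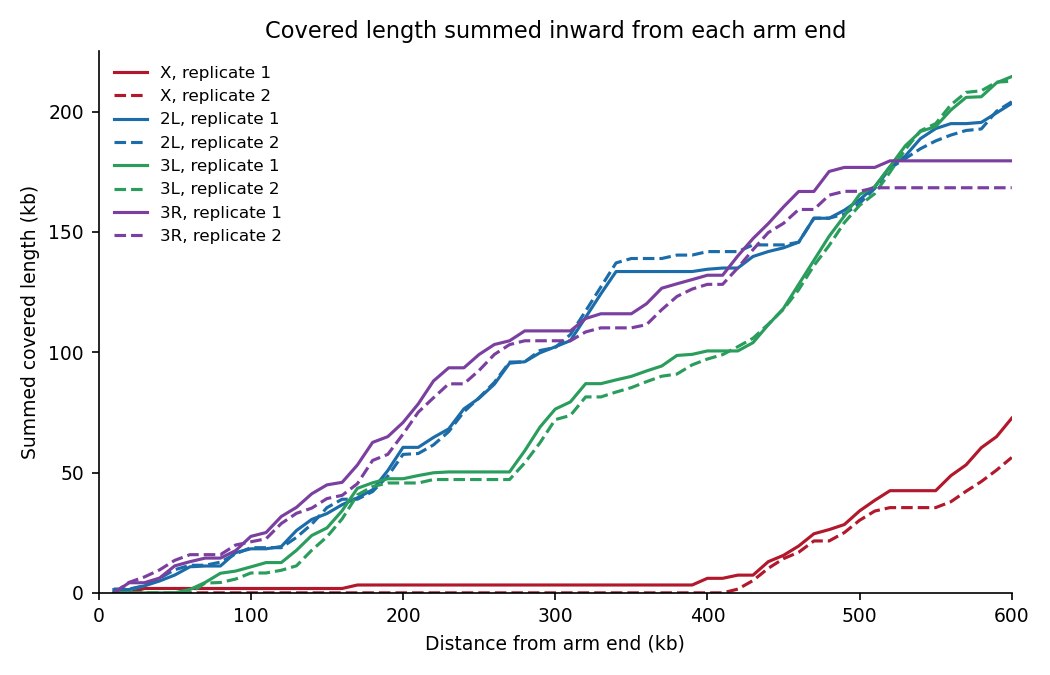
Covered length (kb, vertical axis) summed inward over the outer 600 kb of each arm (horizontal axis, kb from the end); solid lines are replicate 1 and dashed lines replicate 2. At 400 kb, X had reached 6.04 kb and 0 kb. By then 2L had reached 134 kb and 142 kb, 3L 101 kb and 97.2 kb, and 3R 132 kb and 128 kb. Up to 400 kb the X line of replicate 2 stays at 0 kb and that of replicate 1 rises only in small steps.

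Coverage varied widely between the steps of each end. Over the 80 steps of 100 kb, the mean of the replicates ranged from 0% to 84.8%, with a median of 32.3%, against 14.6% over 898 steps of the rest. Steps over 50% covered made up 12 of the 80, or 15.0%, against 3.56% in the rest. Steps under 10% made up 10 of the 80, or 12.5%, against 36.9% in the rest. By blocks of 500 kb over the 4 ends together, coverage was 27.0% and 26.0% in the outermost block, 37.7% and 38.6% from 500 kb to 1000 kb, 34.7% and 36.4% from 1000 to 1500 kb, and 30.9% and 31.8% in the innermost. The outermost block was low on X alone, at 6.81% and 6.03%, while 2L had 32.7% and 32.4%, 3L 33.1% and 32.2%, and 3R 35.4% and 33.4%.

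Steps were ranked by the mean of the replicates. At the end of 2L, the step from 1900 to 2000 kb was the most covered, with 61.1% and 62.5% in replicates 1 and 2. The step from 600 to 700 kb was the least covered, with 2.78% and 4.61%. The step on its outer side had 40.0% and 42.3%, and that on its inner side 12.9% and 21.6%. The regions of the replicates in that sparse step, 2 and 3, did not overlap. At the end of 3L, coverage was concentrated between 400 and 1200 kb, apart from the step from 600 to 700 kb, with 20.6% and 30.3%. It reached 82.6% and 87.0% in the step from 700 to 800 kb and 69.1% and 74.5% in that from 1100 to 1200 kb. From 1200 to 1800 kb the mean of the replicates in a step lay between 22.9% and 32.2%. Coverage then fell to 6.71% and 2.56% from 1800 to 1900 kb, the least covered step of that end, with 8.05% and 4.64% in the next.

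At the end of 3R, the step from 700 to 800 kb was the most covered by that mean, with 56.0% and 65.7%, although in replicate 1 the step from 1700 to 1800 kb had more, 58.7%. The sparse step was that from 500 to 600 kb, with 2.74% and 1.49%, between steps of 44.8% and 38.7% on its outer side and 44.6% and 49.5% on its inner side. At the end of X, the most covered step was 1400 to 1500 kb, with 67.0% and 65.3%, and the least covered was 200 to 300 kb, with 0% in both.

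**Figure D4:**
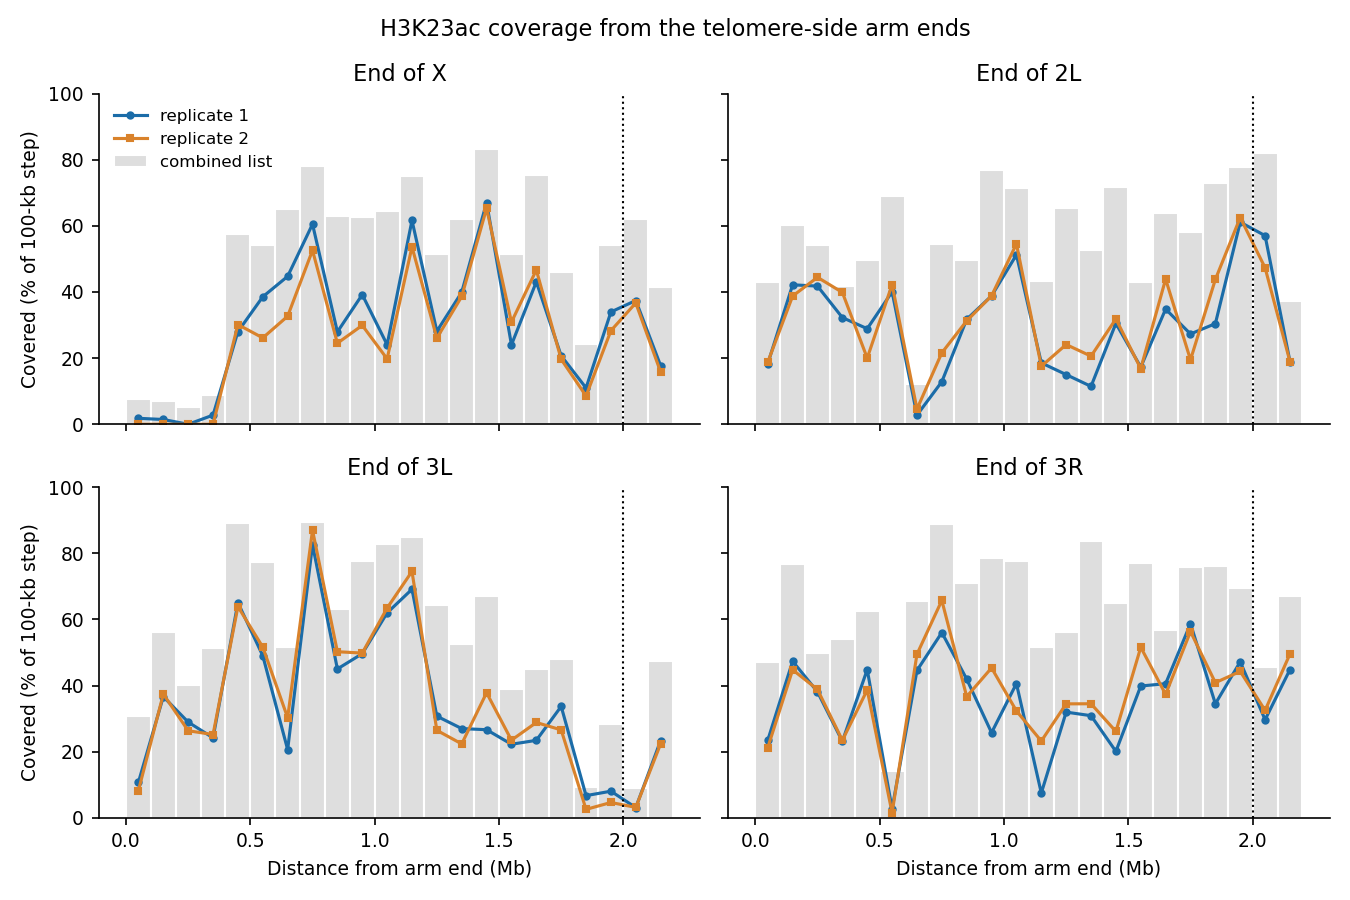
Share of each 100-kb step covered by H3K23ac regions (%, vertical axis) against the distance from the arm end (Mb, horizontal axis), with replicate 1 as circles, replicate 2 as squares and the combined list as grey bars; the dotted line is the 2-Mb border. The first 4 steps of X are at most 2.78% covered in either replicate, 3L peaks at 82.6% and 87.0%, and 2L and 3R each have 1 step under 5% in both replicates.

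The longest stretches without a region in either replicate were on X. They ran from X 169021 to 390335, 221315 bp long, and from X 29088 to 167571, 138484 bp long, and the combined list covered 5.16% and 5.55% of them. On 3R the longest was 94353 bp, from 3R 27295369 to 27389721, followed by 35802 bp from 3R 27593573 to 27629374. On 3L they were 57487 bp, from 3L 1793887 to 1851373, and the outermost 52284 bp, in which the combined list had no region either. On 2L they were 57256 bp, from 2L 607811 to 665066, and 50487 bp, from 2L 679737 to 730223, separated by a short marked stretch. The 2 stretches of X were each longer than those of the other ends.

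The widest combined regions of the ends were marked over most of their length in both replicates. The widest was on 3L, from 770068 to 826634, 56567 bp with a combined score of 0.93. Replicate 1 had 2 regions there, covering 94.2% of it, and replicate 2 had 1, covering 98.6%. It lay just inward of another wide region of the same end, 3L 712360 to 748638, 36279 bp with a score of 0.81 and covered over 92.9% and 95.5%. This second region lay wholly, and the widest one in part, in the most covered step of that end. The others among the 3 widest of 3L were 3L 1102536 to 1154576, covered over 72.6% and 92.8% by 9 regions in each replicate, and 3L 447934 to 490978, covered over 95.4% and 90.1% by 2 and 5 regions. The combined list is built from the same series, so its overlap with the replicates is no independent support.

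At the end of X the widest combined regions were X 1463264 to 1500582, of 37319 bp, X 737802 to 768236, of 30435 bp, and X 1139266 to 1169178, of 29913 bp. The replicates covered 77.5% and 80.0% of the first, 70.4% and 77.0% of the second, and 85.0% and 87.6% of the last. Each was split into several regions in each replicate, 8 and 8, 6 and 9, and 5 and 5 in replicates 1 and 2. The highest-scoring combined regions of X found in both replicates were X 1417662 to 1429088, at 0.88, and X 1891450 to 1893972, at 0.87. The second of these was 2523 bp wide, with a score of 0.85 in replicate 1 and 1.14 in replicate 2.

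On 2L the widest was 2L 310192 to 341822, 31631 bp, which 4 regions of replicate 1 covered over 90.8% and 1 region of replicate 2 over 99.9%. It was followed by 2L 1052000 to 1077540, of 25541 bp, and 2L 1884772 to 1909724, of 24953 bp. The first of these 2 also had the highest combined score of the 2L regions found in both replicates, 0.77, ahead of 2L 1595030 to 1605740 at 0.75. On 3R the widest were 3R 27679052 to 27713782, of 34731 bp, 3R 27253500 to 27282118, of 28619 bp, and 3R 26591286 to 26612692, of 21407 bp. The replicates covered 82.4% and 84.4% of the first, 80.8% and 98.2% of the second, and 71.5% and 70.3% of the last. The highest combined scores there were 0.72, at 3R 26292768 to 26306990 and at 3R 27136788 to 27156956. The widest regions of 3L were thus longer than any of the other ends.

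The combined regions nearest the arm ends were narrower. They were 2L 7366 to 9500, 3R 27891230 to 27894176, 3L 52350 to 53606 and X 20962 to 23058, between 1257 bp and 2947 bp wide. Those of 2L and 3R were found in both replicates, that of 3L in replicate 1 only and that of X in neither. The combined score was 0.44 for that of X, 0.40 for that of 2L, 0.31 for that of 3L and 0.49 for that of 3R.

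Regions in the ends were found in the other replicate more often than regions in the rest. In replicate 1, 620 of 809 end regions met one of replicate 2, with an overlap of 1 bp or more. That is 76.6%, against 64.4% in the rest and 67.5% over the whole list. In replicate 2, 618 of 817 overlapped replicate 1, or 75.6%, against 67.3% in the rest and 69.7% over the whole list. The difference between ends and rest was 10.3 percentage points ± 2.75 (SD, n = 2), and 5.24 points when at least 50% of both regions had to overlap. It was 21.0 and 23.1 points on X, 14.8 and 10.2 on 3L, 8.40 and 4.07 on 2L, and 10.6 and 2.61 on 3R. It was larger than its spread on X, 3L and 2L, while on 3R, at 6.62 points ± 5.67, it was little larger.

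In covered length, the replicates shared 1856 kb of the 3407 kb covered in either over the 4 ends, a Jaccard index of 0.545, against 0.421 in the rest. The index was 0.636 at the end of 3L, 0.525 at 3R, 0.516 at 2L and 0.492 at X, against 0.441, 0.463, 0.436 and 0.265 in the rest of those arms. By full windows of 2 Mb, that of 3R lying 10 to 12 Mb from its telomere-side end had a higher index than the end, 0.537. The window of 3L from 22 to 24 Mb had 0.611, below its end. On X and 2L the end was highest. Regions of the ends found in both replicates were wider than the others of the ends, with medians of 2657.5 bp and 1555 bp in replicate 1 and 2567.5 bp and 1606 bp in replicate 2. Lists that cover more also meet more often, so steps of like coverage were set side by side. Among steps less than 10% covered, the median index was 0 over 9 steps of the ends and 0.148 over 285 of the rest, and among those 10% to 20% covered it was 0.262 over 7 and 0.303 over 236. Among steps 20% to 30% covered, it was 0.431 over 18 steps of the ends and 0.422 over 177 of the rest. Among those 30% to 40% covered it was 0.487 over 22 and 0.510 over 84, among those 40% to 60% covered 0.648 over 16 and 0.603 over 58, and above that 0.713 over 7 and 0.700 over 12. In these 6 classes the ends were higher in 3 and lower in 3, each time by less than the range between the quartiles of the steps.

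**Figure D5:**
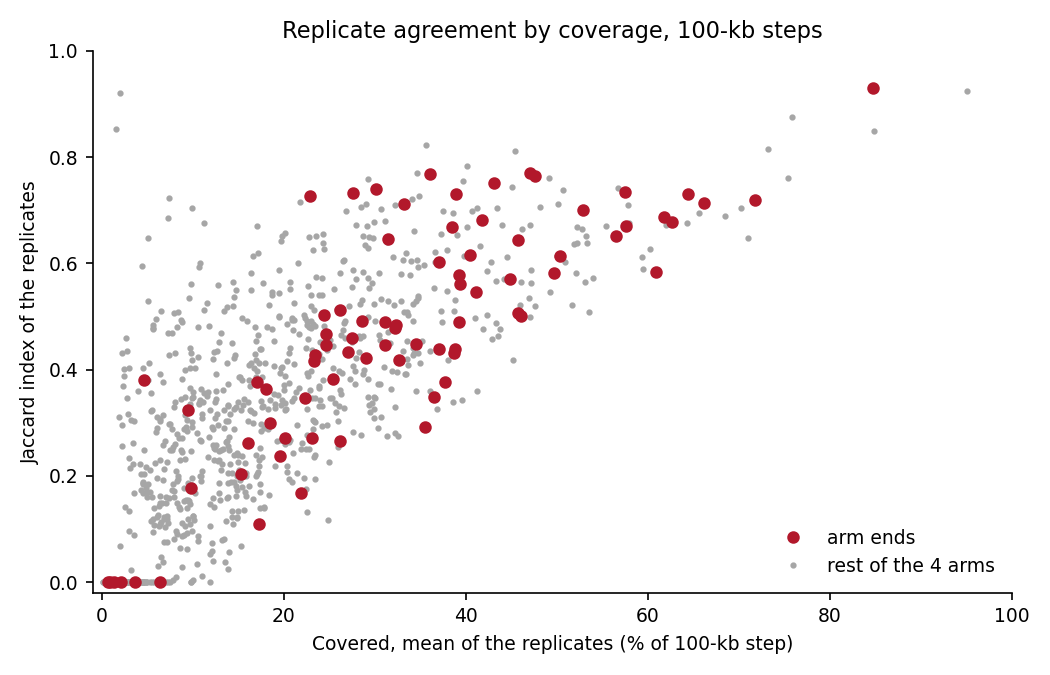
Jaccard index of the replicates (vertical axis) against the mean share of the 100-kb step covered (%, horizontal axis), for steps of the arm ends (large points) and of the rest of X, 2L, 3L and 3R (small points); steps with no region in either replicate are left out. Both sets climb along the same band, with medians of 0.431 in the ends and 0.422 in the rest among steps 20% to 30% covered.

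The replicates followed the same profile along the ends. Across the 80 steps Pearson's r between their covered shares was 0.941 and Spearman's rho 0.915. The profile was shared as closely over the 898 steps of the rest, with 0.948 and 0.933. Steps share arms and libraries, so no p is given. The median difference between replicates in a step was 3.41 percentage points in the ends and 2.60 in the rest. Within the ends, the difference was largest on 3R from 900 to 1000 kb, where replicate 1 had 25.7% and replicate 2 45.3%. On 3R the step from 1100 to 1200 kb also differed, with 7.50% and 23.2%, by 4 and 14 regions. On X replicate 1 was the more covered in 16 of 20 steps and replicate 2 in 3. On the other ends replicate 2 was the more covered in 13 of 20 steps on 2L, 12 on 3L and 11 on 3R. The highest step index was 0.929, on 3L from 700 to 800 kb. An index of 0 was found in 6 of the 80 steps of the ends, and in 95 of the 898 steps of the rest. Of the 6, 3 were in the first 400 kb of X. The others were the sparse steps of 2L and 3R and the step of 3L from 1900 to 2000 kb.

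More of the combined regions in the ends were found in both replicates than in the rest. Of the 1012 combined regions of the ends, 394 overlapped both replicates, or 38.9%, against 25.3% in the rest of the 4 arms and 27.9% over the whole list. Those in neither numbered 346, or 34.2%, against 46.9% in the rest and 44.4% over the whole list. Regions found in both made up 73.4% of the combined length in the ends and 53.2% in the rest, and their median width was 6459 bp in the ends and 4642 bp in the rest. The contrast was largest on X, with 38.3% in both at its end and 16.6% in its rest. These shares were not set against coverage or width. In ends and rest alike, the combined list held regions from 1001 bp, narrower than any replicate region on the 4 arms. The combined list had fewer regions per Mb in the ends than in the rest, 126.5 and 138. This held on X, with 107 and 138, and on 3L, with 104.5 and 136, but not on 2L, with 143.5 and 130, or on 3R, with 151 and 148. Over the 4 arms the replicate lists had more, at 101 and 102 in the ends against 73.7 and 70.8 in the rest.

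The highest scores of the combined list in the ends belonged to narrow regions outside both replicates. They were X 897560 to 898654, 1095 bp with a score of 1.60, and 2L 47380 to 48536, 1157 bp with a score of 1.21, a pair chosen after seeing the values. Both were narrower than any region listed for either replicate on the 4 arms. Whether regions so narrow could be listed in a replicate was not tested. The next highest score, 0.93, was that of the widest region, on 3L. Of the 8 highest combined scores in the ends, 5 were on X in regions found in both replicates, with scores from 0.84 to 0.88. The rest of the arms held higher combined scores than the ends, up to 3.06 on X, 2.18 on 2L, 3.06 on 3L and 3.30 on 3R.

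The 2-Mb border cut through marked stretches on X, 2L and 3R. On X the last step inside was covered over 34.0% and 28.3% in replicates 1 and 2, and the first outside over 37.4% and 36.7%. On 2L they were 61.1% and 62.5% inside and 57.0% and 47.3% outside, and on 3R 47.2% and 44.3% inside and 29.7% and 32.5% outside. On 3L the border lay within a sparse stretch, with 8.05% and 4.64% inside and 3.10% and 3.17% outside. The last regions inside the border, 1 for each end and replicate, had a median width of 2904.5 bp and scores from 0.57 to 0.74. The first regions outside had a median width of 4595 bp and scores from 0.48 to 0.74. In the combined list the last regions inside scored from 0.41 to 0.60 and the first outside from 0.38 to 0.83.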

How the data were processed

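H3K23ac ChIP-seq region lists of 2 ChIP replicates and a combined list were analysed. Per the submitters' processing notes, reads were aligned with Bowtie 0.12.7. The peak caller, its threshold, read filters, depth and the way the replicates were combined were not given in the sources used here. Coordinates are on FlyBase release 5, per the file headers. No header names the unit of the deposited score, and log2 was inferred from its values: score differences gave ratios of whole numbers for 100% of regions in both replicates and 99.6% in the combined list (relative tolerance 1e-12, denominators up to 20000). Its zero point is unknown, so score levels were not compared between replicate and combined lists.

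Covered shares counted bases inside the outer 2 Mb. Regions were assigned by midpoint. The rest is the remainder of X, 2L, 3L and 3R. Interval functions were checked on simulated regions. Python 3.11.15, numpy 2.4.6, pandas 2.3.3, scipy 1.17.1 and matplotlib 3.10.9 were used.

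The members and the rule for named regions were chosen with earlier results of these data known. For each end, the rule took the combined region nearest the end, the 3 widest, the 2 highest-scoring ones found in both replicates, the most and least covered 100-kb steps and the 2 longest unmarked stretches. The gene table at hand is of release 6, coordinates were not converted and no gene or sequence is given. Alternatives were ends of 1 Mb and 3 Mb, the middle of the arms as the rest, regions above the median score, merging, leaving out X or a replicate, whole widths, the combined list, an overlap of 50% and other step sizes.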

Additional observations from a re-analysis of the deposited data

How the results depend on the processing

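The differences between ends and rest in covered share, score, width and overlap kept their sign under the alternatives run, while the number of regions per Mb, higher in the ends in both replicates, was lower there in the combined list. The difference in covered share, 15.2 percentage points, was 14.0 with ends of 1 Mb, 13.3 with ends of 3 Mb and 16.9 without the outer 400 kb of X, an alternative chosen after the data were seen. The score difference, 0.043, was 0.030 with ends of 1 Mb, 0.024 above the median score, 0.038 without X and 0.024 in the combined list. The width difference, 281 bp, was 570 bp above the median score, 851 bp after merging regions under 1000 bp apart and 508 bp in the combined list. The difference in the share found in the other replicate, 10.3 percentage points, was 18.9 above the median score and 5.24 with an overlap of at least 50% of both regions. The causes were not tested. The other 29 values for these differences moved by no more than the SD between replicates, but 8 of them leave out 1 of 2 replicates and could not have moved further. With a single replicate, the differences were 14.6 to 15.8 percentage points, 0.040 to 0.046, 229 to 333 bp and 8.33 to 12.2 percentage points. The correlation of the replicates was 0.929 with steps of 50 kb and 0.954 with steps of 200 kb. Depth is unknown, so a stretch without regions cannot be told from one with too few reads. No paired analysis was possible for ChIP against input samples because lists of the inputs were not used here, while ends and rest were compared within each replicate.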
